A study of Homo sapiens with 2 samples.

Results

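Caspases and the inhibitor of apoptosis proteins (IAPs) that restrain them were described by every probe set assigned to exactly 1 gene among CASP1, CASP4, CASP6, CASP8, CASP9, BIRC2, BIRC3 and XIAP. A probe set is a group of short probes read together as 1 transcript measurement. The rule found 23 of 54675 probe sets, for 7 of the 8 genes, and BIRC3 was not analysed here. Panc1, a human pancreatic ductal adenocarcinoma cell line, was measured as a stable population transfected with wild-type syk (Panc1/syk-wt, 1 array) and as a stable population transfected with the vector alone (Panc1/mock, 1 array). The series title calls the mock cells drug-resistant, and the comparison asks which transcripts differ when the tyrosine kinase SYK is put back. Both populations were held under hygromycin and received no other treatment. The labels call both stable populations and do not say whether either grew from 1 clone. Without replicates each value stands alone, with no error and no test, and population, RNA preparation and array cannot be told apart.

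Caspases are cysteine proteases that cut after aspartate. Initiator caspases start cell death, CASP8 at death receptors and CASP9 on the apoptosome built by APAF1 and cytochrome c, and effector caspases such as CASP6 cut structural proteins of the dying cell. CASP1 and CASP4 act in inflammation instead: CASP1 matures interleukin-1 beta and interleukin-18 on inflammasomes, and CASP4 senses bacterial lipopolysaccharide inside the cell. IAPs carry BIR domains. XIAP binds and blocks active caspases directly, whereas BIRC2 (cIAP1) is mainly a ubiquitin ligase that decides between survival and death signalling at the TNF receptor.

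Levels are RMA values on a log2 intensity scale, on which a difference of 1 is 2-fold. They compare 1 probe set between the arrays, not 1 probe set with another. The highest signal of 27 control probe sets against bacterial transcripts was 4.77, and values at or below it are treated as dim. The arrays had medians of 4.24 (syk-wt) and 4.26 (mock) and correlated at r = 0.98 across all probe sets, which are not independent. The 4 SYK probe sets read 2.98 to 4.73 on the syk-wt array and 3.07 to 4.27 on the mock array, all at or below 4.77, so SYK gave no clear check of the labels. Whether they lie within the introduced cDNA was not analysed here. The 3' minus 5' signal of the ACTB controls was 2.37 on the syk-wt array and 1.95 on the mock array, and that of GAPDH 0.32 and 0.19 in the same order. That imbalance moves with every difference below, and its part in them was not tested. Of 7 markers listed for carcinoma epithelium, 6 were above 4.77 on both arrays, while CDH1 was so on the mock array alone. Among the 6 were KRT8, KRT18, KRT19, KRT7 and EPCAM. The remaining 1 was VIM (12.98 on syk-wt, 13.64 on mock), which marks mesenchymal rather than epithelial cells. Of the markers with a probe set named here, 4 of 4 acinar, 4 of 4 islet, 4 of 4 endothelial, 3 of 3 fibroblast and 4 of 5 leukocyte genes were at or below 4.77 on both arrays. The exception was the B cell gene CD79A (5.24 on syk-wt, 5.06 on mock), named after its value was seen. PTPRC, which marks leukocytes, read 2.996 on the syk-wt array and 2.88 on the mock array.

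Of the 7 measured genes, CASP8, CASP6, CASP4, CASP9, XIAP and BIRC2 were lower on the syk-wt array, each by less than 2-fold, and CASP1 was dim on both arrays. In RNA of whole cultures, fewer cells expressing a gene and less RNA per cell cannot be told apart. A gene is given by its brightest probe set, and counts cover probe sets whose mean over both arrays reached 4.25, the 50th percentile of all probe sets. At gene level 0 of 7 members differed at least 2-fold, where 7.26% of 12814 genes did. The median difference was -0.29 (range -0.65 to -0.13), which is the reading of CASP1 itself, a gene that reached the filter only through its mock value. With dim values raised to 4.77 the median was -0.26, with 6 of 7 genes below 0 and CASP1 at 0. As measured, all 12814 genes had a median of 0.01, and 47.8% of them were below 0. With dim values raised to 4.77 they had a median of 0, and 44.0% were below 0. CASP8 and CASP6 were the 2 members past 1.5-fold, a threshold that 22.7% of all genes passed, 10.5% in the lower direction. As a guide to probe behaviour alone, probe sets of the same gene scattered around each other with a pooled SD of 0.35 (6028 genes), and CASP8, CASP6 and CASP4 differed by more than that while CASP1, CASP9, XIAP and BIRC2 differed by less.

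**Figure D1:**
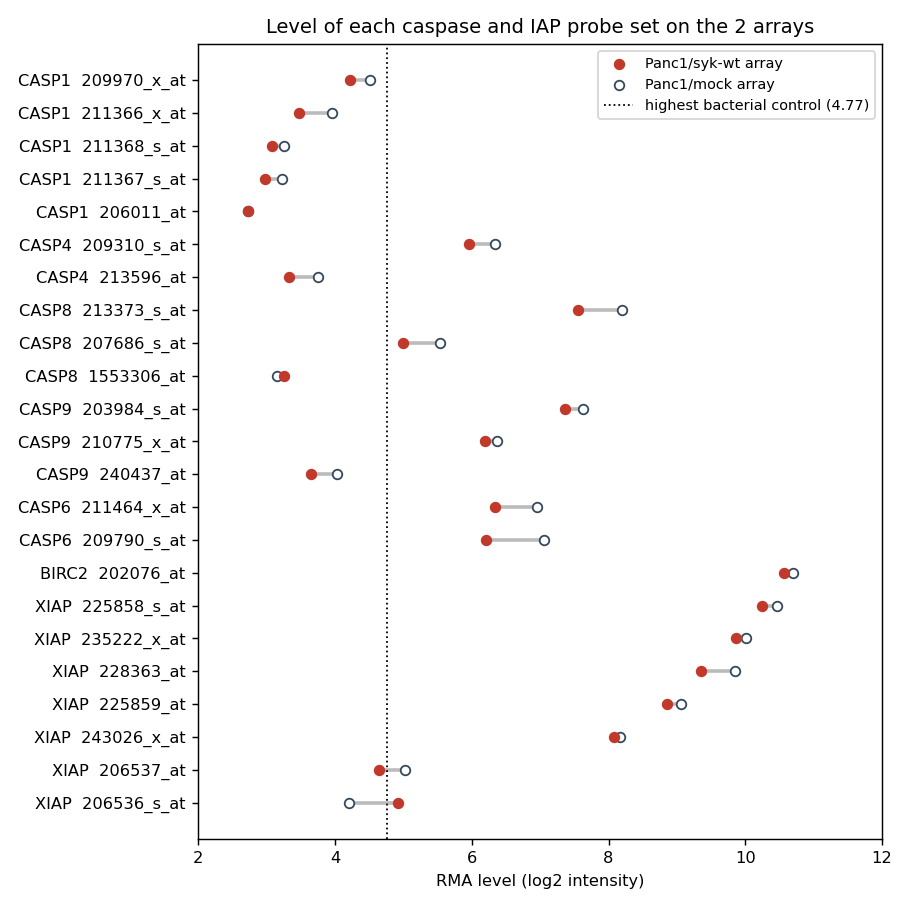
RMA level (log2 intensity, x axis) of each of the 23 probe sets on the Panc1/syk-wt array (filled) and the Panc1/mock array (open), 1 array each. The dotted line is the highest bacterial control, 4.77, and all 5 CASP1 probe sets lie at or below it on both arrays.

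Among the initiators, CASP8, the protease of the death-inducing signalling complex, read 7.55 on the syk-wt array and 8.20 on the mock array by its brightest probe set. That is a log2 difference of -0.65, or 1.57-fold lower, and 8.83% of all genes were at least as low. A second CASP8 probe set read 4.997 on syk-wt and 5.53 on mock, a difference of -0.53. Both bright CASP8 probe sets were therefore lower on the syk-wt array by similar amounts. The remaining CASP8 probe set lay below the brightness filter and differed by 0.11 between 2 dim values (3.26 on syk-wt, 3.14 on mock).

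CASP9, the apoptosome protease, differed less. Its brightest probe set read 7.37 on the syk-wt array and 7.63 on the mock array, a difference of -0.26 (1.198-fold lower). Another read 6.196 on syk-wt and 6.37 on mock, a difference of -0.17. The remaining CASP9 probe set differed by -0.38 between values that were dim on both arrays. All 3 were lower on the syk-wt array, and the 2 above the filter differed by less than the probe-set SD of 0.35.

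CASP6, the effector that cuts nuclear lamins, had the largest difference of any single member probe set. That probe set read 6.205 on the syk-wt array and 7.06 on the mock array, a difference of -0.86 or 1.81-fold lower. The other, a probe set with the suffix _x_at, was marginally brighter on average and so stands for the gene. It read 6.34 on syk-wt and 6.96 on mock, a difference of -0.62 or 1.54-fold lower. That suffix marks probe sets that may also read related transcripts. The CASP9 probe set at -0.17 carries it too. Both CASP6 probe sets passed 1.5-fold, which 22% of the 23066 named probe sets past the filter did.

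Of the inflammatory pair, CASP4 read 5.97 on the syk-wt array and 6.35 on the mock array, a difference of -0.38 (1.30-fold lower), and its other probe set differed by -0.41 with both values at or below 4.77. CASP1 has 5 probe sets here, with highest readings of 4.21 on the syk-wt array and 4.51 on the mock array. All of its values were at or below 4.77, so no fold is given. Of the 5 CASP1 differences, 4 lay between -0.48 and -0.18, and 1 was exactly 0 because the probe set read 2.72 on both arrays. CASP1 RNA was thus not distinguished from the highest bacterial control in either population. That control stands apart, since the next reached 3.61. The brightest CASP1 probe set, which also carries the suffix _x_at, lay above 3.61 on both arrays.

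Of the IAPs, BIRC2 was bright and nearly level between the arrays. It read 10.6 on syk-wt and 10.7 on mock in its single probe set, a difference of -0.13 (1.10-fold lower), and 75.1% of all genes had an absolute difference at least as large. XIAP has 7 probe sets here. Its brightest read 10.2 on the syk-wt array and 10.5 on the mock array, a difference of -0.23 (1.17-fold lower). Of the other 4 XIAP probe sets above 4.77 on both arrays, the differences were -0.15, -0.49, -0.20 and -0.08. All 5 bright XIAP probe sets were lower on the syk-wt array, although those at -0.15 and -0.08 carry the suffix _x_at. The remaining pair each had 1 of their values at or below 4.77 and parted in sign, 1 reading 4.65 on syk-wt and 5.02 on mock (-0.37) and the other 4.92 on syk-wt and 4.21 on mock (0.71). With values at or below 4.77 raised to it, these 2 differences were -0.25 and 0.15. The probe set at 0.71 was the 1 member probe set past the filter that was higher on the syk-wt array. It reached the filter only through its syk-wt value.

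**Figure D2:**
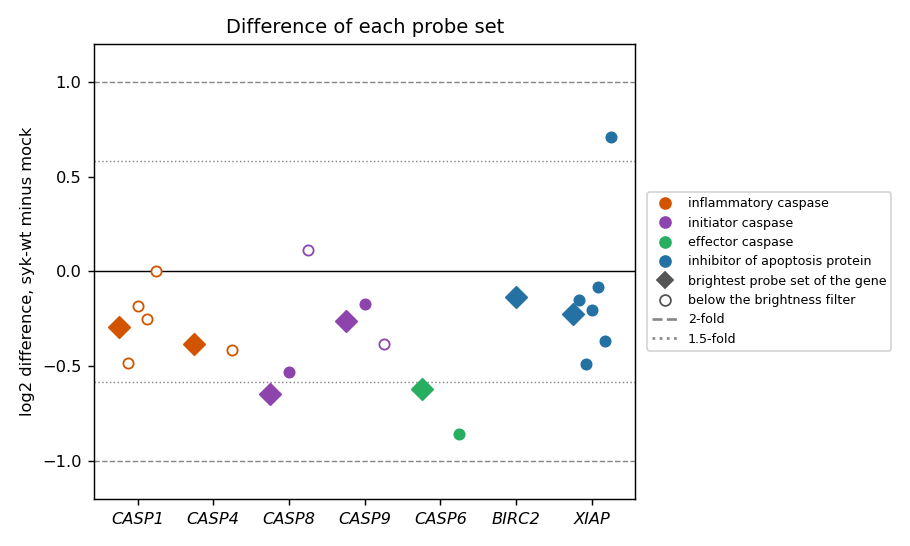
Log2 difference, Panc1/syk-wt minus Panc1/mock, of each of the 23 probe sets (y axis) by gene (x axis), 1 array per group. Diamonds are the brightest probe set of a gene, open circles lie below the brightness filter, and dashed and dotted lines mark 2-fold and 1.5-fold. No point passes 2-fold, and 1 XIAP probe set, dim on the mock array, stands at 0.71 while the other filled points lie below 0.

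Taking the roles side by side, the 5 caspase genes lay between -0.65 and -0.26 (median -0.38) and the 2 IAP genes at -0.23 and -0.13, which do not overlap as measured. They do overlap with dim values raised to 4.77, where CASP1 stands at 0. The probe sets overlapped as well: those of caspases past the filter ranged from -0.86 to -0.17 and those of IAPs from -0.49 to 0.71, and the difference between the roles could not be tested. Over probe sets past the filter, 15 of 16 members were below 0, against 48.8% of the 23066 named probe sets. For the 13 member probe sets above 4.77 on both arrays the median was -0.26, and the same cut over all probe sets was not analysed here. With the filter at the 75th percentile, 5 of 5 member genes were below 0, beside 46.6% of 8031 genes. The members share the arrays and, within a gene, the transcript, so these counts are not independent observations. At the 2-fold threshold 0 of 16 passed, where 6.81% of named probe sets did (3.48% lower and 3.33% higher on the syk-wt array).

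**Figure D3:**
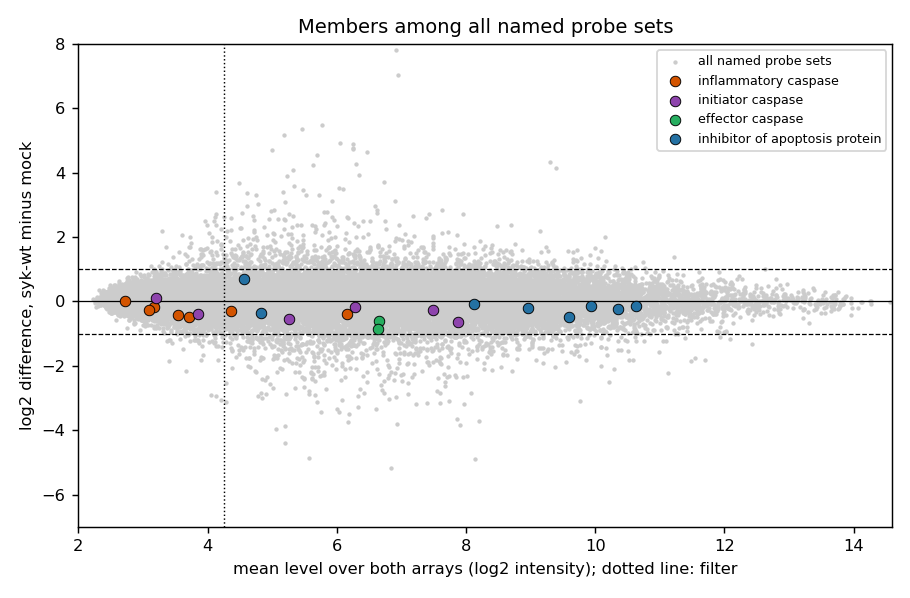
Log2 difference, syk-wt minus mock (y axis), against the mean level over both arrays (x axis, log2 intensity), with all named probe sets in grey and the 23 members coloured by role. The members lie inside the 2-fold lines (dashed), mostly just below 0, at all brightness levels. The dotted line is the filter at 4.25.

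Promoter sequence was available from RefSeq (GRCh38.p14) for 6 of the 7 measured genes, not for CASP1. It came in 12 windows of 250 bases before to 50 after a transcript start. The sequences shown are the 250 bases upstream of 1 start for each of the 3 caspases whose differences were largest. Of the CASP8 starts, the first in chromosome order is shown. The sequences show how unlike the promoters of genes lower on the same array are. Each is written 5' to 3' on the gene's strand, and capitals mark the motifs found.
CASP8 (chr2:201233213-201233462, plus strand): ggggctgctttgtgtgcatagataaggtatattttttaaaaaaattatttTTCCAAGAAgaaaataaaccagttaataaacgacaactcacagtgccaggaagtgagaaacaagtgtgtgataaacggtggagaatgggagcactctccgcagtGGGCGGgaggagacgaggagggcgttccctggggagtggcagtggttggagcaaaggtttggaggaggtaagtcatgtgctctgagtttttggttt
CASP6 (chr4:109703446-109703695, minus strand): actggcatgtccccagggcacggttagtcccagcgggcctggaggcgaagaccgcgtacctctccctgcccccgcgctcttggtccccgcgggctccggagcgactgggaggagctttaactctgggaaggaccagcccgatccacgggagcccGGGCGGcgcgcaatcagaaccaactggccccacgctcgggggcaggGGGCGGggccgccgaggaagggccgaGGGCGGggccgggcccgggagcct
CASP4 (chr11:104968575-104968824, minus strand): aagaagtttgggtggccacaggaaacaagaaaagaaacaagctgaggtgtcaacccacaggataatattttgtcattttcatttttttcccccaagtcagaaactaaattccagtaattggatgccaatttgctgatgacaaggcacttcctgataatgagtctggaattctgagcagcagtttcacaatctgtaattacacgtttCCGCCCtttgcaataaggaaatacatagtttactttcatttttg
The motifs searched on both strands were the interferon-stimulated response element core (TTTC followed by TTTC after 2 bases of any kind), the gamma-activated sequence TTCNNNGAA, the GC box GGGCGG and the TATA box TATAAA. In the 3 sequences no matches overlap. The CASP6 sequence holds 3 GC boxes, and its full window is 72% G and C. The CASP8 window shown is 46.3% G and C, with 1 GC box and 1 TTCNNNGAA match. Other CASP8 windows are 43% and 54.3% G and C and hold neither a GC box nor a TTCNNNGAA match. The CASP4 window is 39.7% G and C with 1 GC box on the opposite strand. The median over all 35116 windows was 58.7%. Of the 6 genes with a window, CASP8 was also the 1 with the interferon-stimulated core. It begins 3 bases before this start, is absent from the other CASP8 windows, and is held by 3.57% of all windows. The core itself is at chr2:201233460-201233469. The 30 bases around the core, shown because it spans the start and is cut by the upstream sequence above, lie at chr2:201233450-201233479.
CASP8 start: gagtttttggTTTCTGTTTCaccttgtgtc
The TTCNNNGAA letters stand in 7.66% of all windows, the GC box in 44.95% and in 9 of the 12 member windows, and TATAAA in 11.53% and in 1 member window, that of another CASP8 start. Some windows of the same gene overlap. A BIRC2 GC box and an XIAP GC box are therefore each counted in more than 1 window. All motifs given are matches of letters and show no binding.

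The other genes of the caspase pathways were read from 7 lists, chosen like the members with earlier results of these data known. Of 74 list genes with a probe set named here, 61 passed the filter. Past 2-fold on the syk-wt array were 4 higher and 4 lower genes, or 13.1%, beside the 7.26% of all genes, and the median was -0.13. With the mean over a gene's probe sets 4 of 61 were past 2-fold (6.56%, beside 6.24% of all genes), namely BIRC7, GSDME, PYCARD and TNFAIP3, and with probe sets ending in _at alone 3 of 40 (7.5%, beside 7.43%). Each list is given by its counts alone, and none could be tested.

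The genes that work with CASP1 and CASP4 in inflammasomes and pyroptosis gave the lowest list median of the 7, -0.30. In this list 9 of 9 genes past the filter were below 0, beside 47.8% of all genes. At least 2-fold lower were 2 of them, as were 3.65% of all genes. NLRP1 was dim on both arrays and reached the filter only through its mock value, and its other probe set past the filter differed by 0. IL1B (4.81 on syk-wt, 4.86 on mock, -0.06) and IL1A (4.96 on syk-wt, 5.25 on mock, -0.30) lay little above the highest bacterial control. The list median of -0.30 is the reading of IL1A itself. NLRP1, IL1B and IL1A were named after their values were seen. PYCARD, the adaptor ASC that brings CASP1 to the inflammasome sensor, read 7.31 on the syk-wt array and 9.24 on the mock array, 3.797-fold lower in its 1 probe set past the filter. GSDME, a gasdermin that forms membrane pores once cut, read 7.59 on syk-wt and 8.96 on mock, 2.58-fold lower. IL18, the cytokine that CASP1 matures, read 7.41 on syk-wt and 8.40 on mock, 1.99-fold lower. The difference of CASP4 was -0.38, and none can be read for CASP1. GSDMD, the pore-forming substrate of both caspases, differed by -0.34. GSDMD was named after its value was seen. Another 6 genes of this list lay below the filter.

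HTRA2 and DIABLO, the antagonists of IAPs that passed the filter, were higher on the syk-wt array where the members were lower. HTRA2, a mitochondrial protease that binds XIAP once released, read 8.28 on the syk-wt array and 7.49 on the mock array, 1.74-fold higher, with its other probe set at 0.53. DIABLO (SMAC), released from mitochondria to displace caspases from XIAP, read 10.7 on syk-wt and 10.2 on mock, 1.45-fold higher. ENDOG, a mitochondrial endonuclease, was 1.45-fold lower (7.31 on syk-wt, 7.85 on mock). Of the 6 genes past the filter in this list, 3 were above and 3 below 0, with 0 past 2-fold and a median of -0.07. The largest difference in this list was that of HTRA2.

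The adaptors and regulators around CASP8 had a median of -0.13 over 10 genes, with 0 past 2-fold. CFLAR, the catalytically inactive relative of CASP8 known as FLIP, read 7.17 on the syk-wt array and 7.87 on the mock array by its brightest probe set, 1.62-fold lower, but its 11 probe sets past the filter ran from -1.07 to 0.37. CRADD, an adaptor of the initiator caspase CASP2, was 1.49-fold higher (6.86 on syk-wt, 6.28 on mock). FAF1, a FAS-associated protein, was 1.39-fold higher (9.69 on syk-wt, 9.22 on mock). CFLAR and CASP8 were thus both lower by their brightest probe sets, by -0.70 and -0.65.

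Partners of the cellular IAPs in TNF and NF-kappaB signalling had a median of 0.04 over 12 genes, with 3 at least 2-fold higher (3.61% of all genes were) and 0 at least 2-fold lower. With the mean over probe sets TNFAIP3 was the 1 gene of this list past 2-fold. CYLD, a deubiquitinase that removes linear and lysine-linked ubiquitin chains, read 7.01 on the syk-wt array and 5.80 on the mock array, 2.32-fold higher, although its 5 probe sets ran from -0.16 to 1.21. TNFAIP3 (A20), a ubiquitin-editing enzyme and feedback inhibitor of NF-kappaB, read 7.95 on syk-wt and 6.76 on mock, 2.29-fold higher, with its other probe set at 1.002. RBCK1 (HOIL-1), a subunit of the linear ubiquitin ligase recruited through cellular IAPs, was 2.13-fold higher (10.6 on syk-wt, 9.49 on mock), with 3 probe sets between 0.34 and 1.09. The direction held in all probe sets past the filter for TNFAIP3 and RBCK1, and not for CYLD.

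Of the remaining relatives, 4 other caspases and caspase-like genes past the filter had a median of -0.08, with 0 past 2-fold. CARD18, a card-domain protein that binds CASP1, differed by 0.50, and the paracaspase MALT1 by -0.38, with 3 probe sets between -0.78 and -0.38. The initiator CASP10, a relative of CASP8, differed by -0.15, and its other probe set by 0.26. Of 4 other BIR proteins, BIRC7 (livin), an IAP known from melanoma, was 2.03-fold lower (5.53 on syk-wt, 6.55 on mock). BIRC5 (survivin), which works in cell division, differed by 0.33, with 4 probe sets between -0.27 and 0.40, and the large ubiquitin-conjugating BIRC6 by -0.09. Proteins that caspases cut had a median of -0.18 over 16 genes. Among them DFFA (ICAD), the inhibitor of the caspase-activated nuclease, was 2.01-fold higher (9.86 on syk-wt, 8.86 on mock), with 3 probe sets between 0.48 and 1.006, and GSN (gelsolin) 2.03-fold lower (8.05 on syk-wt, 9.07 on mock), with 3 between -1.02 and -0.54. With the mean over probe sets 0 genes of this list passed 2-fold. LMNA, the lamin that CASP6 cuts, was 1.74-fold lower (9.81 on syk-wt, 10.6 on mock), with 5 probe sets between -0.80 and -0.14.

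**Figure D4:**
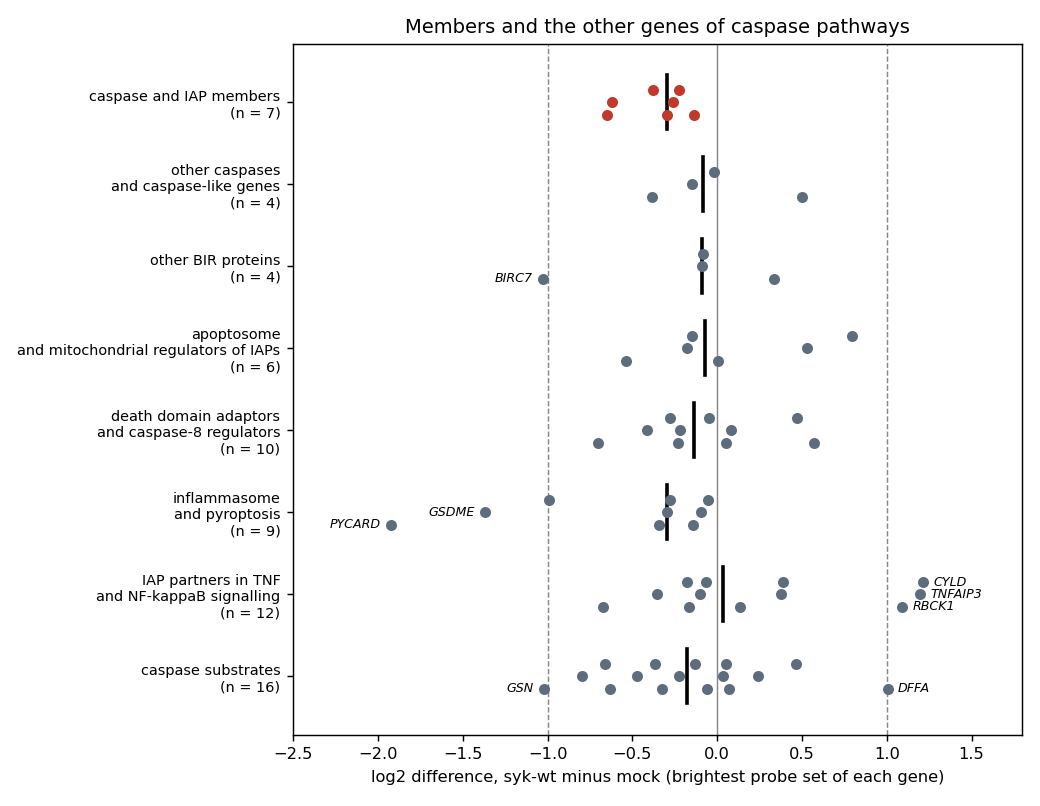
Log2 difference, syk-wt minus mock (x axis), of each gene past the filter by its brightest probe set, for the members (red) and the 7 pathway lists. Black bars are medians, dashed lines mark 2-fold, and genes past 2-fold are named. The member median is -0.29, the value of the dim CASP1, and PYCARD at -1.92 is the point farthest from 0.

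BIRC2, CASP4 and CASP1 lie on the same stretch of human chromosome 11. In the RefSeq gene order, the stretch from 5 genes before BIRC3, which adjoins BIRC2, to 5 genes after CASP1 holds 60 genes of all types, of which 23 have a probe set named here and 9 passed the filter. Of the 9, 7 were below 0, among them the dim CASP1, beside 47.8% of all genes. The median was CASP1's own -0.29. Past 2-fold were 2 of the 9, beside 7.26% of all genes. Both were higher on the syk-wt array, as were 3.61% of all genes. Of these 2, MMP1 reached the filter only through its syk-wt value. MMP1, the interstitial collagenase, was at least 5.33-fold higher (7.18 on syk-wt, 3.27 on mock), taking the dim mock value as 4.77. PDGFD, a platelet-derived growth factor, was at least 2.63-fold higher in the same way (6.16 on syk-wt, 4.63 on mock). The 3 members there differed by -0.13, -0.38 and -0.29, so genes of this stretch differed in both directions.

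**Figure D5:**
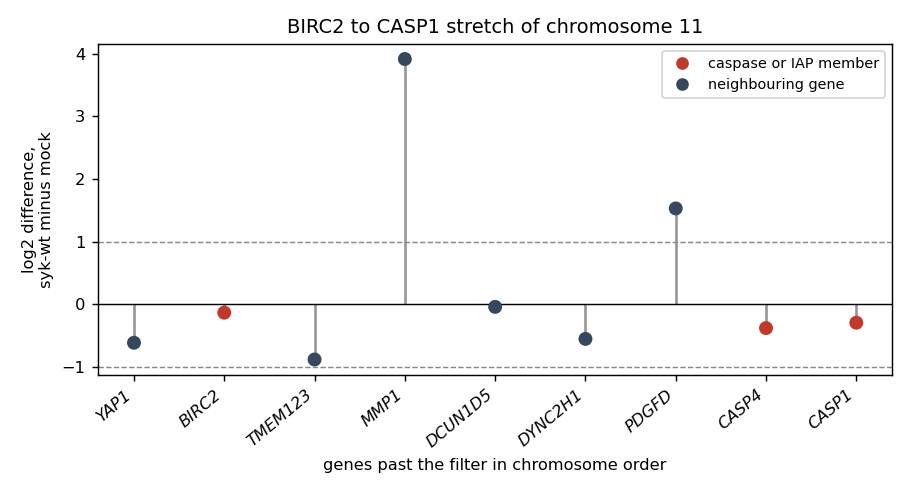
Log2 difference, syk-wt minus mock (y axis), of the 9 genes past the filter on the chromosome 11 stretch around BIRC2, CASP4 and CASP1, in gene order (x axis, not to distance), 1 array per group. Measured values are drawn, so MMP1 and PDGFD stand at 3.91 and 1.53 from a dim mock value. The other genes lie between -0.88 and -0.04.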

How the data were processed

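The deposited table holds 1 log2 intensity per probe set and array, made by the authors with RMA (robust multi-array average: background subtraction, quantile alignment of the arrays, summary over probes), per the submitters' processing notes, which give no version or settings. The log2 scale was inferred from the values, which run from 2.14 to 14.6. Quantile alignment removes any overall shift, and RMA compresses differences between dim probe sets. Per the labels' protocols, biotinylated cRNA was made from total RNA of cells harvested below confluence.

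Names came from the platform annotation, which gave 1 gene symbol for 41097 probe sets. Several symbols stood beside 1801, which were not used by name, and 11777 stayed without a name here. Of the single symbols, 41043 matched a RefSeq gene ID and 0 were renamed. The difference syk-wt minus mock was taken per probe set, and a gene took its probe set with the highest mean. The filter was a mean of 4.25, the 50th percentile. The floor of 4.77 is the highest of 27 bacterial control probe sets (the next reached 3.61), and a fold with 1 value at or below it is given as "at least".

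With 1 array per group no p-value, error or interval exists, and the number of arrays limits the precision. Members and lists were chosen with earlier results of these data known. All members were named, with list genes past 2-fold or among the 3 largest absolute differences of their list, and chromosome 11 neighbours past 2-fold. Alternatives were median centring, removal of a loess trend (span 0.2), the mean or median over probe sets, probe sets ending in _at alone, no filter, a filter at the 75th percentile, the floor, and a threshold of 1.5-fold. The calculation was tested on simulated data. Python 3.11.15, pandas 2.3.3 and statsmodels 0.14.6 were used. No column was left unused.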

Additional observations from a re-analysis of the deposited data

How the results depend on the processing

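Under the 8 alternatives at the 2-fold threshold, 0 member genes passed it, and 0 member probe sets in those that count single probe sets. At 1.5-fold, 2 genes and 4 probe sets did, by the construction of that threshold. The member median of -0.29 ran from -0.31 to -0.26, with all alternatives below 0. Each gene moved by less than the probe-set SD of 0.35 and stayed below 0 wherever it was measured, except CASP1, which was 0 with the floor. CASP8 ran from -0.68 to -0.59, CASP6 from -0.74 to -0.60, CASP4 from -0.38 to -0.36, CASP9 from -0.29 to -0.22, BIRC2 from -0.15 to -0.11 and XIAP from -0.49 to -0.12. With probe sets ending in _at alone only BIRC2 and XIAP were left. The gene values of caspases and IAPs did not overlap under centring, loess, the mean or median over probe sets, no filter and the filter at the 75th percentile (3 caspases), and they did with the floor. These settings reuse the same 2 arrays, so they are not separate evidence. The gap was narrow, with CASP9 at -0.26 and XIAP at -0.23 as measured. Of 61 pathway genes, 8 passed 2-fold (13.1%, beside 7.26% of all genes), against 4 with the mean (6.56%, beside 6.24%) and 4 with the median over probe sets (6.56%, beside 6.29%), 3 of 40 with _at alone (7.5%, beside 7.43%), and 15 at 1.5-fold (24.6%, beside 22.7%). No paired analysis was possible because each group has 1 array, and no array could be left out for the same reason. Dim signal limits CASP1 most, since all of its probe sets lie at or below 4.77.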

Other observations

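The RMA values of 2189 probe sets (4.00% of 54675) were identical on both arrays to the last deposited digit, among them 1 CASP1 probe set at 2.72. Of these, 1890 were at or below the floor of 4.77, and the brightest reached 10.5. No difference can be read from such values.

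Some regulators had probe sets that parted in sign on the same 2 arrays. The 11 CFLAR probe sets past the filter ran from -1.07 to 0.37, and the 5 of the initiator caspase CASP2, singled out after its values were seen, from -0.25 to 0.84 around a brightest value of -0.02. Which transcripts these probe sets read was not analysed here.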
